A study of Mus musculus with 31 samples.

Results

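Matrix metalloproteinases and the tissue inhibitors that restrain them were followed in kidneys of mice with polycystic kidney disease, with and without RGLS4326, an oligonucleotide inhibitor of the microRNA miR-17. The group holds 9 of the 23509 genes counted: Mmp7, Mmp2, Mmp3, Mmp9, Mmp12, Mmp14, Timp1, Timp2 and Timp3. It was chosen by the treatment response, because Mmp7 had the largest fall with the drug. Of 2114 genes with an adjusted p under 0.05 for treatment and a mean of 5 CPM or more (counts scaled to a common library size), Mmp7 ranked 1 with a log2 fold change of -1.62, and the next gene, Igfbp2, stood at -1.02. For that reason the comparison of RGLS4326 with PBS is given below as a description of these genes, without a p-value.

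Kidney RNA came from 12 Pcy/CD1 mice injected with PBS, from 14 Pcy/CD1 mice injected under the skin with RGLS4326 at 25 mg kg-1 each month between 5 and 30 weeks of age, and from 5 wild-type CD1 mice. All kidneys were taken at 30 weeks. Pcy/CD1 mice are a slowly progressing model of polycystic kidney disease on the outbred CD1 background. All were male, per the study's text, and the wild-type mice received no injection, so genotype and injection cannot be told apart in a comparison with wild type. PBS dosing is labelled weekly on the samples and monthly in the protocol. Counts on genes ranged from 14892524 to 27459962 per mouse. Of 7 kidney markers (Umod, Slc12a1, Slc34a1, Lrp2, Slc12a3, Aqp2 and Nphs1), none was at 0 in any library. RGLS4326-treated mouse 9 stood apart from its group near the wild-type mice in most of the genes below. Wild-type mice 3 and 4 were the closest pair, with a chi-square per gene of 2.69 against 15.4 for the next wild-type pair. This is more than sampling noise alone gives. Separate libraries of the same kidney could also exceed that noise, so the value cannot show that they are different animals. They were kept as separate mice because they are labelled so.

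Matrix metalloproteinases are zinc-dependent enzymes that cut collagens, other matrix proteins and proteins at the cell surface. They are made as inactive proenzymes, most are secreted, and they are held in check by the tissue inhibitors of metalloproteinases, which bind the active site. In the kidney these enzymes and inhibitors are studied in tubule injury, fibrosis and cyst growth, and MMP7 in urine is known as a marker of tubular damage.

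The start regions of 4 genes are shown because those of Mmp7 and Mmp3 hold exact matches to the AP-1 and TATA strings searched, and those of Timp1 and Timp3 hold none. The sequences are from RefSeq on GRCm38.p6, 5′ to 3′, from 250 bases before to 50 bases after the annotated start. Capitals mark AP-1 motifs (TGANTCA) and TATA motifs (TATAAA), searched on both strands. Mmp7 lies at chr9:7691840-7692139 and Mmp3 at chr9:7445572-7445871, both on the plus strand, and Timp1 at chrX:20869916-20870215 and Timp3 at chr10:86300162-86300461, also on the plus strand.
Mmp7: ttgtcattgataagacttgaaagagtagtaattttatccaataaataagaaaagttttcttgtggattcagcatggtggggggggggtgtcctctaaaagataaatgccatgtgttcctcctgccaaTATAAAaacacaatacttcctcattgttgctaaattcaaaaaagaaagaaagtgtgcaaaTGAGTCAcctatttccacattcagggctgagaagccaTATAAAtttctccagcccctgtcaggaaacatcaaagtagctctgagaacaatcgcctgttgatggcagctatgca
Mmp3: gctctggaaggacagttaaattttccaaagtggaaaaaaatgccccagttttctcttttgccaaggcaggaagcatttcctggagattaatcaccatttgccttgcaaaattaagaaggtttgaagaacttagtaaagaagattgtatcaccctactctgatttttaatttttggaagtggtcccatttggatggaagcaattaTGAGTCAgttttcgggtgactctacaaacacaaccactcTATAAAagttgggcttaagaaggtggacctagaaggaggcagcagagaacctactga
Timp1: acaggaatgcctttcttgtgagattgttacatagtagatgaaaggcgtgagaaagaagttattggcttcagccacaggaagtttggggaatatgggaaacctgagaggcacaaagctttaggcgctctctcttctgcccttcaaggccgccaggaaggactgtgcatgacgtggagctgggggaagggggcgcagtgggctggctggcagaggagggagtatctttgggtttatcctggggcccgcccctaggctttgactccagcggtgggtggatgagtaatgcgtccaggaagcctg
Timp3: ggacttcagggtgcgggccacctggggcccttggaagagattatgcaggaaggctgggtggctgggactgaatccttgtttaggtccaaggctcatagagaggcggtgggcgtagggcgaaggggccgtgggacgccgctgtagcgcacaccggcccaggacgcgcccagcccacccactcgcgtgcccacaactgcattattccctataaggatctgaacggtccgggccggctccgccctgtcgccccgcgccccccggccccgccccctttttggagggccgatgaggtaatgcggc
Promoters of 7 of the 9 members were in the table, those of Mmp2 and Mmp9 not. AP-1 is the dimer of Fos and Jun proteins, and its motif was found in Mmp7, starting at position -63 from the annotated start, and in Mmp3, at position -46. Among 32851 promoters of the same length, 7.81% held this motif. The TATA motif was found at -123 and -26 in Mmp7 and at -7 in Mmp3, and 13.6% of all promoters held it. Neither of these exact strings occurred in the windows of Mmp12, Mmp14, Timp1, Timp2 or Timp3. Near matches were not searched, such as tgagtaa in the Timp1 window beside the AP-1 string TGANTCA. The PEA3 motif AGGAAG, bound by Etv4 and Etv5, was found in Mmp7, Mmp3, Mmp12, Mmp14, Timp1 and Timp3 and in 35.4% of all promoters. For TCF/LEF only the exact string CTTTGAA was searched, which was in none of the 7 windows and in 5.14% of all. Near matches to it, such as atcaaag in the Mmp7 window (other strand), were not counted. None of these motifs overlaps another in these 7 windows.

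Because RGLS4326 blocks miR-17, the 3′ UTRs of the members were searched for matches to its seed. The mature mouse miR-17-5p, from chr14:115043684-115043706 on the plus strand of GRCm38.p6, is shown with its seed in capitals, above the 1 match found among the members, in capitals within 29 bases.
miR-17-5p: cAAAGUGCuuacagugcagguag
Timp2 site: cattagactttGCACTTTtaaaaaaaaaa
The match lies in exon 5 of 5 of Timp2, at chr11:118301836-118301842 on the minus strand, at base 1857 of a 3′ UTR of 2630 bases in GENCODE vM21. It pairs with bases 2 to 8 of the microRNA and is not followed by an A, so it is a 7mer. The longest annotated 3′ UTRs of the other 8 members held no such match, and 13.98% of the 13825 tested genes with a 3′ UTR held at least 1. The log2 fold change of Timp2 with RGLS4326 against PBS was -0.35 (SE 0.11).

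In Pcy/CD1 kidneys with PBS, Mmp2, Mmp14, Mmp12 and Timp2 rose against wild type, by 8.76-fold, 7.28-fold, 3.56-fold and 2.98-fold. Timp3 fell to 0.616 of its wild-type level, and Mmp9 did not pass the test. Mmp7, Mmp3 and Timp1 passed the filter on low counts only through the Pcy/CD1 mice, since 1, 0 and 2 of the 5 wild-type mice lay over its cutoff of 0.501 CPM, which the filter applies to CPM before the TMM scaling used for the values printed here. They could be tested only by being higher in the Pcy/CD1 mice, so their values against wild type are given as a description with no p. The PBS level was 48.1-fold that of wild type for Timp1, 42.9-fold for Mmp7 and 14.1-fold for Mmp3, and the log2 fold change of Mmp3 went from 3.82 to 4.57 without wild-type mouse 5. A gene was called at an adjusted p under 0.05 (edgeR quasi-likelihood test, Benjamini-Hochberg over 15185 genes) and an absolute log2 fold change over 0.5. By this rule 24.6% of all genes tested were higher and 17.8% lower, so a call in this comparison was common.

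**Figure D1:**
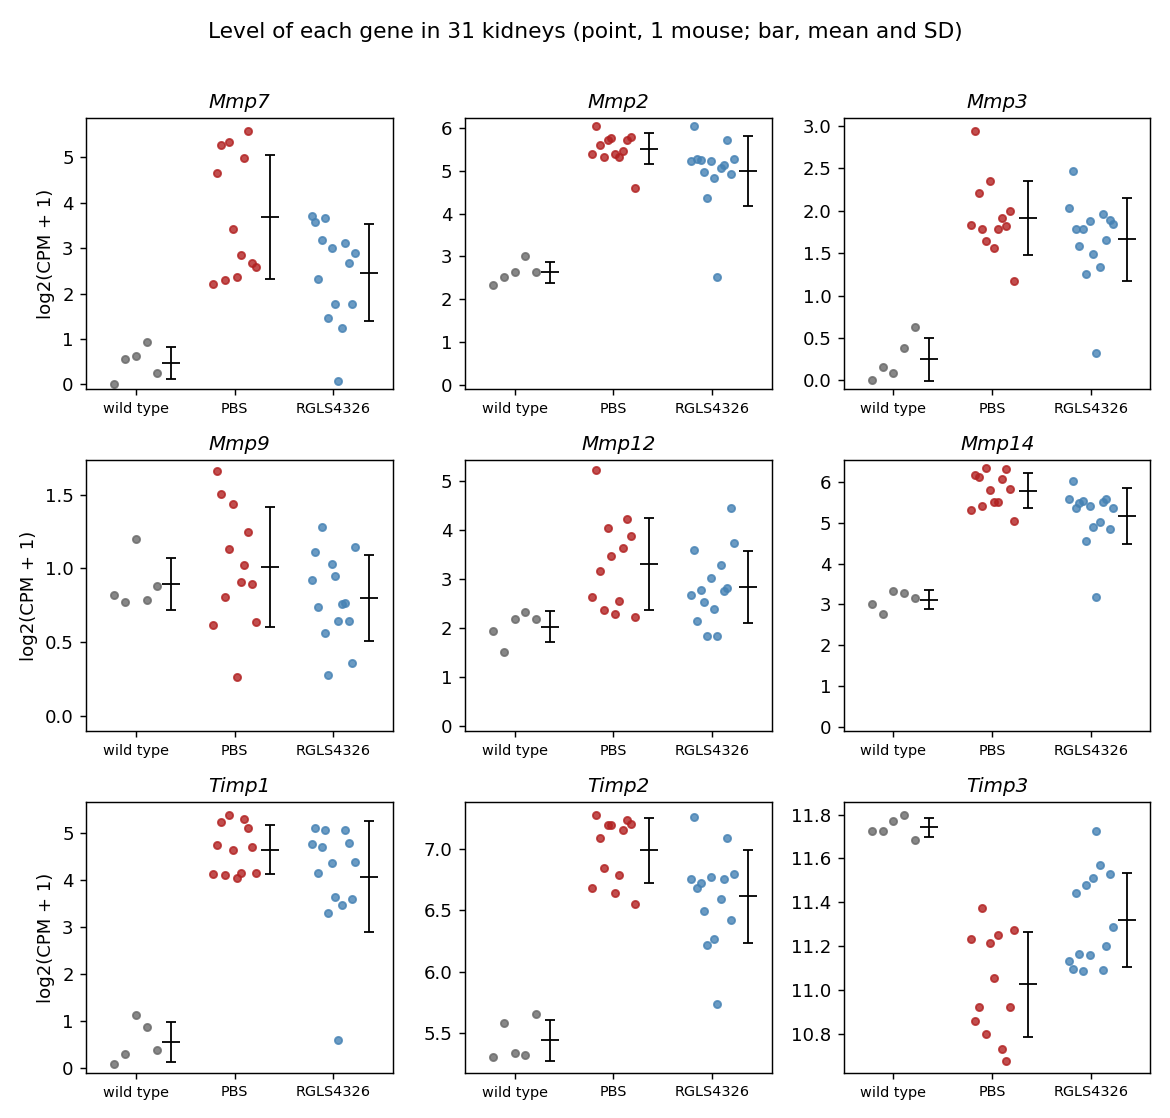
Level of each of the 9 genes in every kidney as log2(CPM + 1), with 1 point per mouse and a bar for the mean and SD, in wild-type (n = 5), PBS-treated (n = 12) and RGLS4326-treated (n = 14) mice, on a scale of its own in each panel that does not start at 0 for Timp2 and Timp3. PBS-treated mice lie apart from wild type in 7 panels and overlap it for Mmp9 and Mmp12, and the lowest treated mouse for Mmp7, Mmp2, Mmp3, Mmp12, Mmp14, Timp1 and Timp2 is mouse 9.

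MMP7, or matrilysin, is made mainly by epithelial cells and cuts matrix and surface proteins such as E-cadherin and syndecan-1. The gene lies at chr9:7692090-7699585 on the plus strand of GRCm38. Wild-type mice 1 to 5 read 0, 0.475, 0.532, 0.908 and 0.181 CPM. With PBS the lowest, median and highest mice read 3.61, 7.97 and 46.8 CPM, and with RGLS4326 they read 0.0511, 5.91 and 12.1 CPM. All 12 PBS-treated mice were above every wild-type mouse, and so were 13 of 14 treated mice, the exception being mouse 9 with 1 count. The PBS values were uneven, with 7 mice at 9.74 CPM or less and 5 at 24.2 CPM or more, and nothing between them. Wild type averaged 0.419 ± 0.349 CPM (SD, n = 5). The PBS group averaged 18.1 ± 16.6 CPM (SD, n = 12), and the RGLS4326 group 5.82 ± 4.0 CPM (SD, n = 14). The difference from wild type with PBS was a log2 fold change of 5.42 (SE 0.99).

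MMP2, or gelatinase A, cuts denatured collagen and basement membrane collagen and is made by fibroblasts. At chr8:92827291-92853420 on the plus strand, Mmp2 read 4.01, 4.75, 5.21, 7.08 and 5.18 CPM in the wild-type mice. Its lowest, median and highest PBS values were 23.1, 45.6 and 64.7 CPM, and those with RGLS4326 were 4.75, 35.2 and 64.7 CPM. Every PBS-treated mouse was above every wild-type mouse, with a log2 fold change of 3.13 (SE 0.34, adjusted p = 1.24e-08 in edgeR). Among treated mice only mouse 9 fell within the wild-type range.

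MMP14 is a membrane-bound collagenase that also activates proMMP2 at the cell surface in a complex with TIMP2. Mmp14 lies at chr14:54431612-54445364 on the plus strand. It read 7.02, 5.82, 9.11, 8.78 and 7.95 CPM in wild type, from 32.0 through a median of 55.1 to 80.4 CPM with PBS, and from 8.13 through 40.8 to 64.1 CPM with RGLS4326. Wild-type and PBS values did not overlap, and the log2 fold change was 2.86 (SE 0.31, adjusted p = 1.12e-08 in edgeR).

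The stromelysin MMP3 and the macrophage elastase MMP12 are encoded in the same cluster of chromosome 9 as Mmp7. Mmp3, at chr9:7445822-7455975 on the plus strand, was scarce, at 0, 0.119, 0.0592, 0.303 and 0.542 CPM in wild type, 1.25 to 6.67 CPM with PBS (median 2.55) and 0.256 to 4.54 CPM with RGLS4326 (median 2.44). Its PBS values did not overlap wild type (log2 fold change 3.82, SE 0.54). Mmp12, at chr9:7344381-7369499 on the plus strand, read 2.83, 1.84, 3.55, 4.0 and 3.55 CPM in wild type, 3.66 to 36.5 CPM with PBS (median 8.97) and 2.56 to 20.8 CPM with RGLS4326 (median 5.76). For Mmp12 the groups overlapped, with 10 of 12 PBS-treated mice above all wild-type mice, and the log2 fold change was 1.83 (SE 0.53, adjusted p = 0.00255 in edgeR). Part of an exon of Mmp12 is shared with Mmp1b on the opposite strand, and Mmp1b was at 0 counts in all 31 libraries.

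MMP9, or gelatinase B, is stored in neutrophils and made by macrophages. Mmp9, at chr2:164940780-164955850 on the plus strand, read 0.767, 0.713, 1.30, 0.727 and 0.843 CPM in wild type. It ranged from 0.199 to 2.16 CPM with PBS (median 0.955) and from 0.213 to 1.43 CPM with RGLS4326 (median 0.695). All 3 groups overlapped. The log2 fold change with PBS was 0.33 (SE 0.38, adjusted p = 0.428 in edgeR), which did not pass the test.

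TIMP1 is a secreted inhibitor that is induced in injury and fibrosis. Timp1 lies at chrX:20870166-20874735 on the plus strand, inside Syn1 without sharing its exons. Wild-type mice read 0.0590, 0.238, 1.18, 0.848 and 0.301 CPM. With PBS the lowest, median and highest values were 15.4, 24.5 and 40.8 CPM, and with RGLS4326 they were 0.511, 19.7 and 33.5 CPM. Every PBS-treated mouse was above every wild-type mouse (log2 fold change 5.59, SE 0.67), while treated mouse 9 did not leave the range of wild type.

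TIMP2 inhibits these enzymes and also takes part in the activation of proMMP2. At chr11:118301069-118355740 on the minus strand, Timp2 read 38.7, 47.0, 39.5, 39.2 and 49.6 CPM in wild type, 92.7 to 154 CPM with PBS (median 138) and 52.6 to 152 CPM with RGLS4326 (median 103). Even treated mouse 9, the lowest, was above all wild-type mice. With PBS the log2 fold change was 1.58 (SE 0.17, adjusted p = 1.09e-08 in edgeR).

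TIMP3 is the inhibitor that binds to the extracellular matrix, and it also restrains ADAM17. It was the member that moved the other way. Timp3, at chr10:86300372-86349506 on the plus strand, read 3390, 3386, 3496, 3564 and 3288 CPM in wild type, 1636 to 2649 CPM with PBS (median 2031) and 2172 to 3382 CPM with RGLS4326 (median 2424). All PBS-treated mice were below all wild-type mice, with a log2 fold change of -0.70 (SE 0.11, adjusted p = 1.70e-06 in edgeR). Treated mouse 9, the highest of its group, was the only treated mouse within the wild-type range. Exons of Timp3 overlap Syn3 on the opposite strand, and those of Mmp7 overlap AV064505. The library kit keeps strand, but the strand setting of the counting is not given in the sources used here, so reads from these pairs are uncertain.

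Groups did not overlap between PBS and wild type for 7 of the 9 genes, 6 with higher values (Mmp7, Mmp3 and Timp1, which passed the filter only through the Pcy/CD1 mice, among them) and Timp3 with lower ones. Over all genes tested, 20.3% were higher and 21.9% lower without overlap. In bulk kidney RNA, fewer cells of a type and less RNA per cell cannot be told apart. Marker lists moved in the same comparison, to be read beside the 24.6% of all genes called higher and 17.8% called lower. Except for neutrophils, counts of calls cover the markers over the filter's cutoff in all 5 wild-type mice, since those under it could enter the test only through the Pcy/CD1 mice. The summed level of 6 injured tubule markers (Lcn2, Havcr1, Krt8, Krt18, Krt19 and Sox9) was 166 to 204 CPM in wild type, 530 to 1862 CPM with PBS and 205 to 1184 CPM with RGLS4326, and 5 of 5 rose with PBS, Sox9 being left out of the count. For 6 fibroblast markers (Pdgfra, Pdgfrb, Col1a1, Col3a1, Lum and Acta2) the sum was 118 to 159, 385 to 804 and 180 to 841 CPM, and 4 of 6 rose. The sum of 5 macrophage markers (Cd68, Csf1r, C1qa, C1qb and Mrc1; a sixth listed, Adgre1, was not analysed here) was 149 to 158, 294 to 489 and 145 to 544 CPM, and 4 of 5 rose. The sum of 5 lymphocyte markers was 2.55 to 4.79, 7.52 to 16.6 and 3.68 to 15.4 CPM, and 4 of them were under the cutoff in at least 1 wild-type mouse, so no count is given. Neutrophil markers were low throughout (2.08 to 5.03, 4.26 to 8.61 and 2.50 to 10.98 CPM), with Mpo at 0 in 21 of 31 libraries and Cxcr2 in 2, and of the 3 tested, Csf3r rose, while S100a8 and S100a9 had log2 fold changes of -0.29 (SE 0.42) and 0.01 (SE 0.34). The 7 kidney markers summed to 17189 to 19968, 8768 to 13656 and 10952 to 17529 CPM, and 4 of 7 fell and 1 rose. With RGLS4326 against PBS all markers tested are counted. The log2 fold change was below 0 for 5 of 6 injured tubule, 5 of 6 fibroblast, 5 of 5 macrophage and 2 of 3 neutrophil markers. It was below 0 for 3 of 5 lymphocyte and 2 of 7 kidney markers, beside 51.1% of all genes tested. Called lower were 1 kidney and 1 lymphocyte marker, beside 1.22% of all genes. The part of these cell types in the metalloproteinase values was not tested.

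Levels of different genes were compared per kilobase of annotated exon. In wild type, Timp3 stood at 421 ± 13.1 CPM per kb (SD, n = 5) and held 96.4% of the summed level of the 9 genes. Timp2 followed at 10.98 ± 1.31 CPM per kb, Mmp2 at 1.56 ± 0.337 and Mmp14 at 1.30 ± 0.225, and Timp1, Mmp12, Mmp7, Mmp9 and Mmp3 were all under 0.6. Only the steps from Timp3 to Timp2 and from Timp2 to Mmp2 exceeded the spread over mice.

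With PBS the order became Timp3, Timp2, Timp1, Mmp7, Mmp2, Mmp14, Mmp3, Mmp12 and Mmp9, at 259, 32.7, 28.7, 16.96, 13.6, 9.45, 1.64, 1.55 and 0.308 CPM per kb. The ranges of neighbours were separate between Timp3 and Timp2 and between Mmp14 and Mmp3, and overlapped elsewhere. With RGLS4326, Mmp7 came after Mmp2 and Mmp14, at 5.45 ± 3.74 CPM per kb (SD, n = 14) against 10.2 ± 4.09 and 6.37 ± 2.26. In that group only Timp3 was separate from its neighbour.

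**Figure D2:**
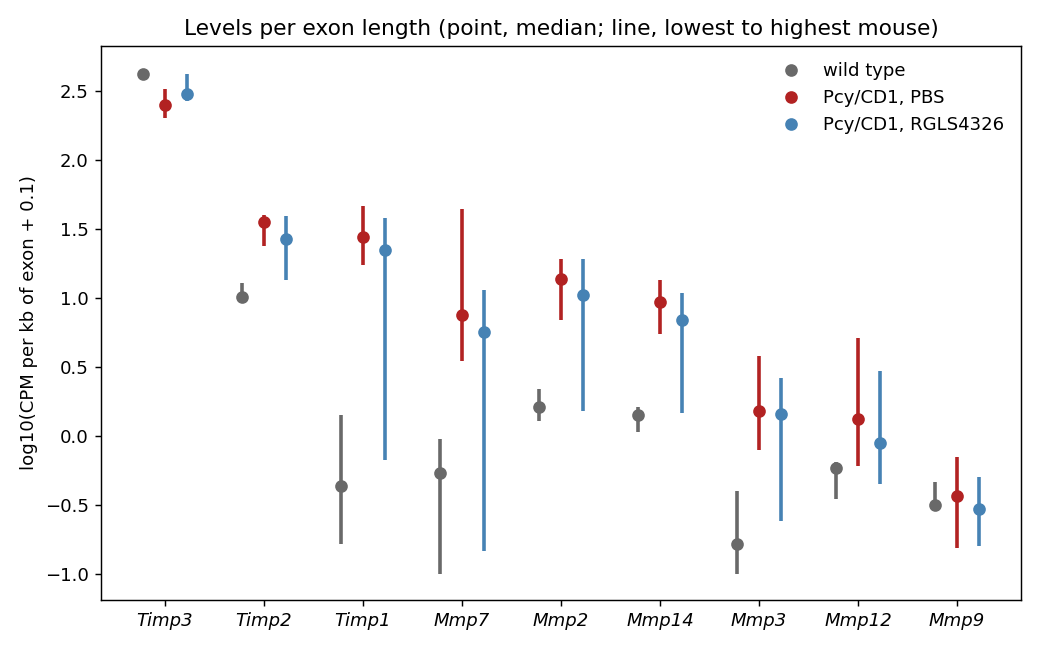
Level of each gene per kilobase of exon, as log10(CPM per kb + 0.1), with a point for the median and a line from the lowest to the highest mouse in wild type, PBS-treated and RGLS4326-treated mice. Timp3 is the most abundant in all 3 groups, with means of 421, 259 and 317 CPM per kb, and Timp1 and Mmp7 lie furthest above wild type.

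Sums of the enzymes and their ratios to the inhibitors are given as a description, since Mmp7 chose the group and Mmp7, Mmp3 and Timp1 passed the filter only through the Pcy/CD1 mice. In wild type the 6 Mmp genes summed to 4.04 ± 0.936 CPM per kb (SD, n = 5). The sum was 43.5 ± 21.0 CPM per kb (SD, n = 12) in PBS-treated mice, against 24.5 ± 9.91 (SD, n = 14) in those given RGLS4326. Without Mmp7 and Mmp3 the sum was 3.54 ± 0.630, 24.9 ± 6.70 and 17.8 ± 6.48 CPM per kb in the same order. Mmp7 made up a median of 11.2% of the sum of all 6 Mmp genes in wild type, 24.7% with PBS and 19.2% with RGLS4326. The ratio of Timp3 to the Mmp sum ran from 81.8 to 140 in wild type and from 2.62 to 16.6 with PBS, with no overlap. With RGLS4326 it had a median of 10.8, against 7.28 with PBS, and ranged from 6.02 to 119, the highest value lying within the wild-type range. Against the sum without Mmp7 and Mmp3 the ratio ran from 101 to 146 in wild type, 6.18 to 23.6 with PBS and 8.45 to 126 with RGLS4326. Timp1 and Timp2 together gave ratios of 2.06 to 3.68 to the Mmp sum in wild type, 0.989 to 2.33 with PBS and 1.70 to 4.05 with RGLS4326, and the 3 groups overlapped. These are ratios of RNA and not of protein.

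RGLS4326 was then set beside PBS. In all 26 mice, 8 of the 9 genes had a log2 fold change below 0, as did 51.1% of all genes tested, and Timp3 was above 0. Mmp7 had the largest value, -1.62 (SE 0.46), or 0.324 of the PBS level in the fit, which compares group means. Its medians lay closer together, at 5.91 CPM with RGLS4326 and 7.97 CPM with PBS. The other enzymes followed with -0.65 (SE 0.34) for Mmp12, -0.57 (SE 0.19) for Mmp14, -0.49 (SE 0.27) for Mmp9, -0.42 (SE 0.20) for Mmp2 and -0.34 (SE 0.26) for Mmp3. Without PBS-treated mouse 2 the value was -0.33 for Mmp12 and -0.16 for Mmp3. Among the inhibitors the log2 fold change was -0.38 (SE 0.30) for Timp1, -0.35 (SE 0.11) for Timp2 and 0.29 (SE 0.08) for Timp3. Mmp7 and Mmp14, 2 of the 9 genes, were past both thresholds, as were 2.15% of all genes tested (1.22% lower), and Timp2 and Timp3 were past the adjusted p alone, as were 15.8% of all genes. Nothing is read from these counts, since this contrast chose the genes. They also moved with single mice: without treated mouse 9 only Mmp7 was past both thresholds, and without PBS-treated mouse 3, 5, 9 or 10, none was.

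Treated and PBS-treated mice overlapped for every member, as for every gene tested (0% did not overlap). For Mmp7, 5 of 14 treated mice were below the lowest PBS mouse and none was above the highest, 46.8 CPM; no treated mouse exceeded 12.1 CPM. For Mmp14, Timp1 and Timp2, 5 of 14 were below all PBS mice, and for Timp3, 6 of 14 were above them. Without treated mouse 9 the log2 fold change of Mmp7 was -1.51, that of Mmp14 -0.48 and that of Timp3 0.26.

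**Figure D3:**
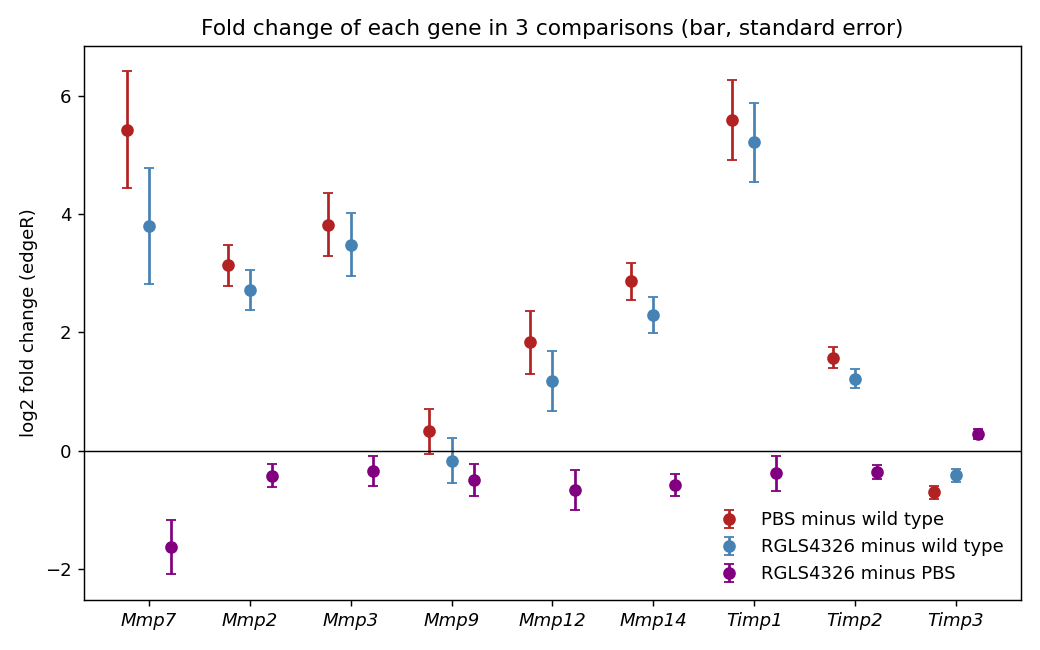
Log2 fold change of each gene with its standard error in 3 comparisons, PBS minus wild type, RGLS4326 minus wild type and RGLS4326 minus PBS, from 1 edgeR model of 31 mice. The first 2 comparisons share the wild-type mice and the first and last share the PBS mice. Mmp7 moves from 5.42 to 3.80 above wild type, and Timp3 is the only gene with a value above 0 against PBS.

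The index numbers in the deposited library names restart, which splits the mice into 3 index series with 4, 4 and 4 PBS-treated and 4, 5 and 5 treated mice. Within them the log2 fold change of Mmp7 with RGLS4326 was -0.99 (SE 0.69), -1.68 (SE 0.88) and -2.20 (SE 0.68). Timp3 was above 0 in each, at 0.10 (SE 0.14), 0.32 (SE 0.16) and 0.43 (SE 0.16). Mmp14 stood at -0.18, -0.93 and -0.60, Mmp2 at -0.13, -0.97 and -0.21, and Mmp12 at -1.08, -1.01 and -0.13. For Timp1 the sign was not shared, at 0.09 (SE 0.28) in series 1, -0.72 (SE 0.67) in series 2 and -0.50 (SE 0.34) in series 3. The values of Timp3 and Timp1 in series 1 were smaller than their SEs, so their signs there are uncertain. Within any single series, no gene of the 9 and none of all genes tested was past both thresholds in edgeR, while 280, 2981 and 3045 of all genes had an unadjusted p under 0.05.

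**Figure D4:**
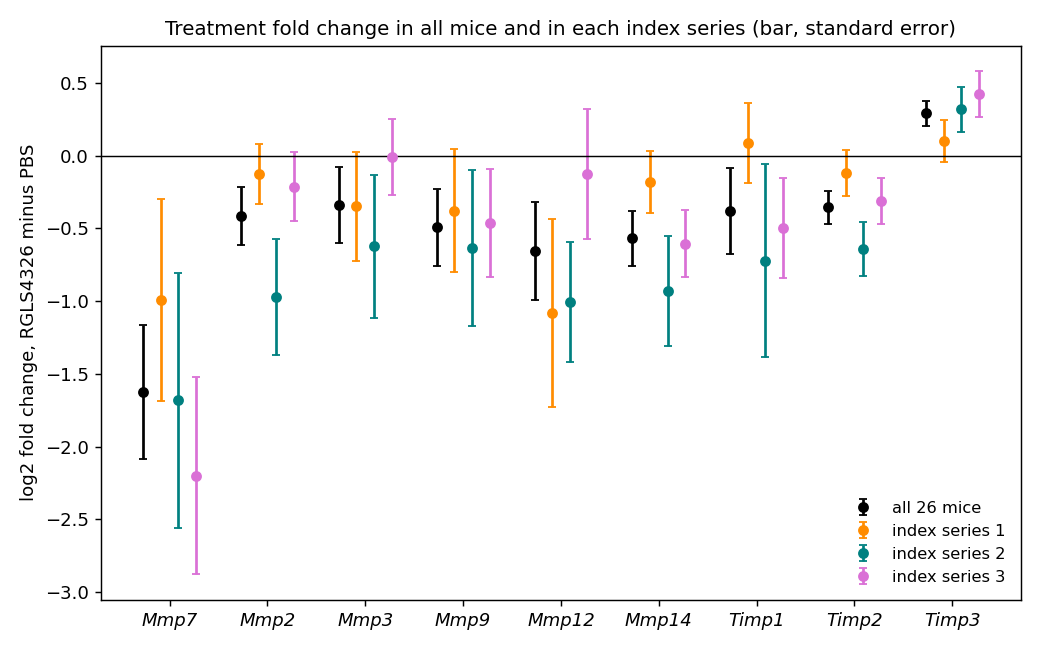
Log2 fold change of each gene with RGLS4326 against PBS, with its standard error, in all 26 Pcy/CD1 mice and within each index series. Mmp7 is below 0 in each series, at -0.99, -1.68 and -2.20, and Timp1 is above 0 in series 1.

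Treated mice still differed from wild type in several of these genes. Mmp2, Mmp14, Timp2 and Mmp12 were called higher, in a comparison where 20.3% of all genes were higher and 11.3% lower. The log2 fold change was 2.71 (SE 0.34, adjusted p = 2.80e-07) for Mmp2, 2.30 (SE 0.30, adjusted p = 5.72e-07) for Mmp14 and 1.22 (SE 0.17, adjusted p = 8.27e-07) for Timp2, all from edgeR. Mmp12 was at the threshold, with 1.18 (SE 0.51, adjusted p = 0.0435 in edgeR), and was not called when any 1 of the 5 wild-type mice was left out (adjusted p from 0.054 to 0.104) or when treated mouse 2, 10, 13 or 14 was (0.0512 to 0.0746), and its adjusted p was 0.0811 with the index series as a covariate. Timp3 was lower by -0.41 (SE 0.11, adjusted p = 0.00164 in edgeR), which is under the threshold on size, and Mmp9 stood at -0.16 (SE 0.37, adjusted p = 0.716). With no test, Mmp7 was at 13.9 times the wild-type level, a log2 fold change of 3.80 (SE 0.99), Timp1 at 5.21 (SE 0.67) and Mmp3 at 3.48 (SE 0.54), or 4.23 for Mmp3 without wild-type mouse 5. Within index series 1 Timp3 was past both thresholds (-0.51, SE 0.17, adjusted p = 0.0335 in edgeR) and Mmp12 was not (adjusted p = 0.219). Within index series 2 none of Mmp2, Mmp14, Timp2 and Mmp12 was called. Without treated mouse 9 the same 4 genes were called, and the value for Mmp7 was 3.91. Only Timp2 was without overlap between treated and wild-type mice, as were 5.04% of all genes tested on the higher side.

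Mouse by mouse, Mmp7 varied most like Timp1 and Mmp14 among the other 8 members. Over the 12 PBS-treated mice Spearman's rho of log2(CPM + 1) with Mmp7 was 0.888 for both, 0.797 for Mmp9, 0.713 for Mmp12, 0.671 for Timp2, 0.510 for Mmp2, 0.273 for Mmp3 and -0.825 for Timp3. Among 13784 genes averaging 1 CPM or more, ranked by this rho with Mmp7 itself first, Timp1 and Mmp14 tied at rank 357. Mmp12 ranked 2034, Timp2 2415, Mmp2 3772, Mmp3 5232 and Timp3 12743, so many genes outside the group followed Mmp7 as closely. Over the 14 treated mice rho was 0.886 for Timp1, 0.881 for Mmp14, 0.723 for Mmp3, 0.609 for Timp2, 0.552 for Mmp2, 0.415 for Mmp9, 0.235 for Mmp12 and -0.925 for Timp3. Without mouse 9 these became 0.857, 0.852, 0.654, 0.511, 0.440, 0.401, 0.044 and -0.907. Mmp9 averaged 0.911 CPM over all mice, where values are few counts. The correlations are descriptions over mice of 1 group, spread over 3 index series. Mice with more Mmp7 tended to have less Timp3 in both groups.

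Across 13784 genes averaging 1 CPM or more, the 5 most like Mmp7 in the PBS-treated mice were Arl4c (rho 0.993), Map1s (0.986), Ncam1 (0.986), Phlda3 (0.986) and Gpc2 (0.979). In the treated mice the same genes had rho of 0.859, 0.732, 0.873, 0.859 and 0.802. Arl4c, a small GTPase, averaged 8.02 CPM in wild type, 32.1 CPM with PBS and 23.5 CPM with RGLS4326, and Ncam1, a neural cell adhesion molecule, 2.50, 17.6 and 12.5 CPM. Lcn2, which encodes Ngal, had rho of 0.951 with PBS and 0.916 with RGLS4326, and the tubule keratin Krt19 had 0.916 and 0.873. Havcr1, which encodes the injury marker Kim-1, had 0.287 and 0.798, and Axin2 had 0.776 and 0.789. By rho with PBS, Lcn2 ranked 45, Krt19 187, Axin2 1406 and Havcr1 5151 of the 13784 genes.

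**Figure D5:**
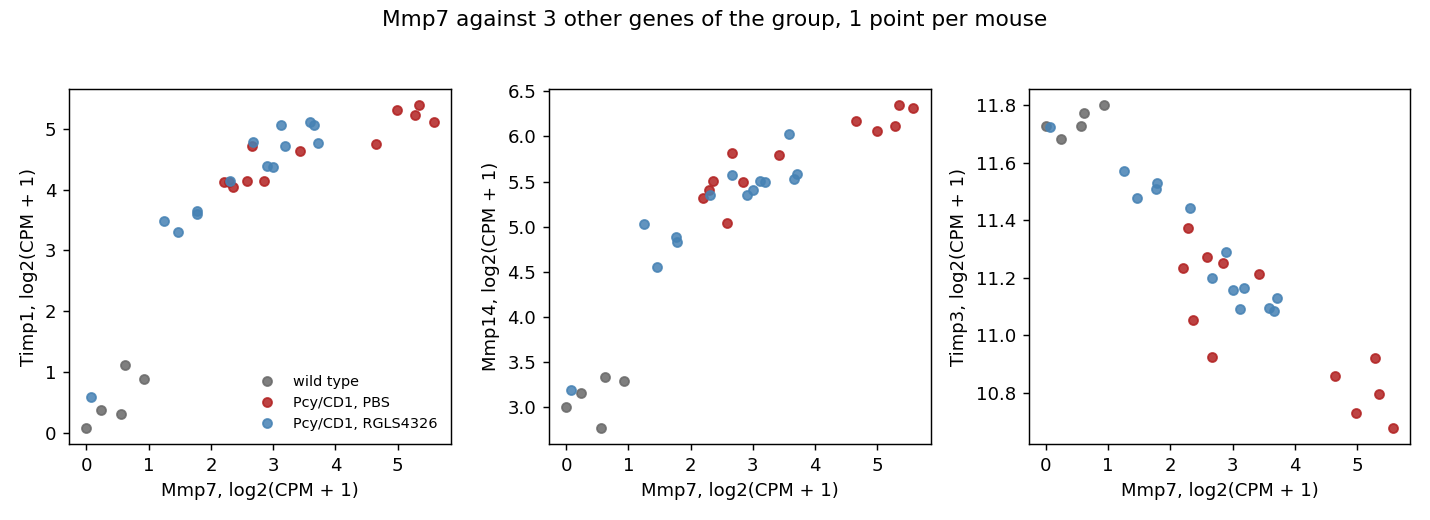
Mmp7 on the x axis against Timp1, Mmp14 and Timp3 on the y axes, all as log2(CPM + 1), with 1 point per mouse in wild type, PBS-treated and RGLS4326-treated groups. Within the PBS-treated mice rho is 0.888 with Timp1, 0.888 with Mmp14 and -0.825 with Timp3.

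The cluster on chromosome 9 holds 10 genes of the family in 427072 bases, in the order Mmp13, Mmp12, Mmp1b, Mmp3, Mmp1a, Mmp10, Mmp8, Mmp27, Mmp20 and Mmp7. Most had few counts in these kidneys. Only Mmp13, Mmp12, Mmp3 and Mmp7 were tested, while Mmp20, next to Mmp7, had 30 counts over all 31 mice and Mmp1a and Mmp1b had 0. Mmp13, a collagenase, was lower with PBS than in wild type (log2 fold change -1.14, SE 0.36, adjusted p = 0.00532 in edgeR), with groups that overlapped.

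Of the 17 other metalloproteinase genes, 9 were tested. Mmp19, Mmp24 and Mmp25 passed the filter only through the Pcy/CD1 mice, and of the other 6, 3 rose and 1 fell with PBS against wild type, beside 24.6% and 17.8% of all genes tested. Mmp19 went from 0.515 ± 0.359 (SD, n = 5) to 4.25 ± 1.15 CPM (SD, n = 12), a log2 fold change of 3.04 (SE 0.35), given with no p. Mmp23 went from 2.73 to 14.5 CPM, or 2.41 (SE 0.31, adjusted p = 8.25e-08 in edgeR). With RGLS4326 against PBS none of the 9 was called by edgeR, beside 2.15% of all genes, and 7 had a log2 fold change below 0, beside 51.1%. Reck, a membrane-anchored inhibitor, was at 0.07 (SE 0.13, adjusted p = 0.610 in edgeR) against wild type, and Timp4 did not pass the filter on low counts.

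Of 6 genes that bear on activation of these enzymes (Furin, Plau, Plaur, Plat, Plg and Bsg), 1 rose and 1 fell with PBS, beside 24.6% and 17.8% of all genes tested. Furin, the protease that removes the propeptide of MMP14, fell from 345 to 235 CPM, with a log2 fold change of -0.55 (SE 0.06, adjusted p = 2.55e-08 in edgeR). Plaur, the urokinase receptor gene, rose from 4.16 to 10.6 CPM (log2 fold change 1.35, SE 0.22, adjusted p = 3.17e-06 in edgeR). With RGLS4326 it averaged 8.66 CPM, above wild type by 1.06 (SE 0.22, adjusted p = 0.000112 in edgeR), and neither of them passed the test against PBS.

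The related ADAM and ADAMTS proteases numbered 14, and 13 were tested. Adamts4 and Adamts12 passed the filter only through the Pcy/CD1 mice, and of the other 11, 5 rose and 1 fell, beside 24.6% and 17.8% of all genes tested. Adamts2, which processes procollagen, rose from 3.06 to 26.3 CPM (log2 fold change 3.10, SE 0.32, adjusted p = 4.60e-09 in edgeR), and Adam19 from 3.68 to 13.1 CPM (1.83, SE 0.23, adjusted p = 7.94e-08). Among 7 genes for proteins that MMP7 can cut, 6 were tested and 5 rose, beside 24.6% of all genes tested. Spp1, which encodes osteopontin, rose from 604 to 4130 CPM (log2 fold change 2.77, SE 0.33, adjusted p = 3.33e-08 in edgeR), and fibronectin, Fn1, from 51.1 to 138 CPM (1.43, SE 0.20, adjusted p = 2.34e-07).

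Of 9 genes for regulators of Mmp transcription or their readouts, Fos and Fosl1 passed the filter only through the Pcy/CD1 mice, and 4 of the other 7 rose and 1 fell, beside 24.6% and 17.8% of all genes tested. Axin2, a target of Wnt signalling, rose from 1.67 to 10.7 CPM (log2 fold change 2.68, SE 0.35, adjusted p = 9.43e-08 in edgeR), and Tcf7 from 1.35 to 6.19 CPM (2.20, SE 0.27, adjusted p = 4.30e-08). Etv5, which encodes a PEA3 family factor, averaged 31.9 CPM in wild type, 19.6 CPM with PBS and 19.4 CPM with RGLS4326. It was lower than in wild type in both groups (log2 fold change -0.71, SE 0.11, adjusted p = 2.66e-06 and -0.72, SE 0.11, adjusted p = 4.05e-06 in edgeR), and stood at -0.01 (SE 0.09) with RGLS4326 against PBS.

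With RGLS4326 against PBS, Axin2 was the 1 gene of 44 tested in these 6 lists that was called, beside 2.15% of all genes. PBS-treated mice averaged 10.7 ± 4.01 CPM (SD, n = 12) of it, treated mice 6.47 ± 2.51 CPM (SD, n = 14), in groups that overlapped, and the log2 fold change was -0.73 (SE 0.20, adjusted p = 0.0242 in edgeR). Without PBS-treated mouse 10 no gene of the lists was called by edgeR, although 10 had an unadjusted p under 0.05. With Axin2, 5 of the 44 genes were past the adjusted p with no threshold on size, beside 15.8% of all genes. The other 4, chosen after their values were seen, are given with no p. Cdh1, which encodes the MMP7 substrate E-cadherin, averaged 286 CPM with PBS and 241 CPM with RGLS4326 (log2 fold change -0.25, SE 0.04). Sdc1, which encodes the substrate syndecan-1, averaged 51.2 and 38.6 CPM (-0.40, SE 0.13). Adam9 stood at 0.22 (SE 0.07) and Tcf7 at -0.47 (SE 0.16).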

How the data were processed

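RNA-seq of kidney was available for 31 mice, 5 of them wild type, 12 given PBS and 14 given RGLS4326. The authors deposited raw counts for 23509 genes per mouse, made from stranded libraries with reads of 75 bases, STAR mapping on GRCm38 and HTSeq 0.6.1, without normalization; HTSeq's summary rows were left out of library sizes and took 26.9% to 31.1% of all entries. Genes passing filterByExpr (15185) were scaled by TMM and fitted with edgeR 4.0.16 (R 4.3.3) as a quasi-likelihood model of 1 coefficient per group, with no covariate. Calls needed less than 0.05 for the Benjamini-Hochberg adjusted p and more than 0.5 on the log2 scale, and SEs were taken as the log2 change over the root of F. DESeq2 1.42.0 was an alternative, and the steps were tested on simulated data. CPM used TMM-scaled libraries, and lengths came from GENCODE vM21. The genes and lists were chosen with earlier results of these data known. Named genes were the 9 members, the 2 of smallest p past both thresholds per list and comparison, and the 5 most like Mmp7. Other genes given with values (Mmp13, Reck, Lcn2, Krt19, Havcr1, Csf3r, S100a8, S100a9, Cdh1, Sdc1, Adam9 and, against PBS, Tcf7 and Etv5) fell outside this rule and were chosen with values in view. Within a group the sample titles tell the mice apart only by number, so p-values measure the spread between these samples. A few genes of the lists are not reported here and were left out of their counts and sums.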

Additional observations from a re-analysis of the deposited data

Results flagged for a closer look

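Among the 9 genes, wild-type mouse 3 stood apart for Mmp9, at 1.30 CPM against 0.713 to 0.843 CPM in the other 4. Its gap to the nearest mouse was 0.779 of the whole range, above the 95% limit of 0.71 for 5 mice. Chance alone would flag about 1 in 20 groups, and 9 were looked at. Without this mouse the log2 fold change of Mmp9 was 0.52 with PBS and 0.03 with RGLS4326, and neither passed the test.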

How the results depend on the processing

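Of the 6 members that passed the filter in wild type too, 5 were called with PBS against wild type in every edgeR or DESeq2 refit with both thresholds except within index series 2 and 3, with 4 each, where Mmp12 was not called. With RGLS4326 against wild type 4 were called, 3 to 4 without 1 mouse and in the other refits with more than 1 wild-type mouse, and 0 within series 2. The 4 called within series 1 were Mmp2, Mmp14, Timp2 and Timp3, and not Mmp12, so the same count can stand for other genes. Counts that include Mmp3 and Timp1 (and Mmp7 with PBS), fixed in direction by the filter, were 8 with PBS (8 without any 1 mouse) and 6 with RGLS4326 (0 within series 2, 5 to 6 without 1 mouse), and nothing is read from them. Against PBS, the members past both thresholds went from 2 to 4 with no threshold on size, 1 in a fit of the 2 groups, 0 with a replicate block and 0 within each index series; leaving out 1 mouse gave 0 (PBS-treated mice 3, 5, 9 and 10), 1 (PBS-treated mice 2 and 11, treated mice 3, 6, 8, 9, 10 and 13) to 3 (treated mouse 2). For the wider lists the call of 1 gene became 5 with no threshold on size, 2 with DESeq2, 0 with the replicate block (12 at an unadjusted p under 0.05 in edgeR) and 0 within each series (1, 12 and 5), and 0 to 4 without 1 mouse. Over all genes, 6442, 4789 and 327 calls (against wild type, then RGLS4326 against PBS) became 11281, 9861 and 2402 with no threshold on size. Against PBS they were 210 with the 2 groups alone, 43 with the replicate block, 0 within each series and 78 to 574 without 1 mouse, and with RGLS4326 against wild type 372 and 2471 within series 2 and 3. Series 3 holds 1 wild-type mouse, assumed to vary like the others. Mmp9, never called, changed sign with PBS within series 2 (-0.00152) and with RGLS4326 within series 1 (0.472), with the replicate block (0.0854) and without wild-type mouse 3 (0.0311, against -0.260 without treated mouse 4). Same-numbered mice are different animals and did not vary together (mean r = -0.085 over 12 pairs, 4 of them over 0.1). The causes were not tested.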
